A study of Homo sapiens with 7 samples.

Results

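SPARC and 9 other non-collagen genes used as markers of mesenchymal cells (FN1, VIM, TAGLN, THY1, LUM, DCN, POSTN, PDGFRB and FBN1) were followed through all 7 libraries of an RNA-seq experiment on β-like cells. The 10 symbols were matched to Ensembl gene IDs of the deposited table, which lists 66025 IDs, and all 10 were among the 22926 genes with enough counts to be tested. SPARC was selected on its level, which was higher in the iKD2 Dox+ libraries, so its values in the comparisons with that group are a description and carry no test. The other 9 genes were listed as mesenchymal markers, in the knowledge of earlier results from these libraries. SPARC averaged 418 ± 45.6 counts scaled to a common library total (CPM) in iKD2 Dox+ (SD, n = 3), beside 108 ± 17.9 CPM in iKD2 Dox- and 181 ± 13.4 CPM in iSCR Dox+ (SD, n = 2 each). SPARC did not pass edgeR's test over all genes between iKD2 Dox- and iSCR Dox+, the only comparison in which it was tested. None of the other 9 genes passed in any comparison. VIM, the most abundant for its length, was lowest in 2 of the 3 iKD2 Dox+ libraries.

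The cells were derived from H1, an established line of human embryonic stem cells, and were differentiated in vitro to stage 6, the stage of β-like cells. Cells that express insulin were then sorted with DA-ZP1, a zinc-sensing dye, according to the study's methods. The iKD2 line carries a lentiviral shRNA against METTL14, which works with METTL3 to place N6-methyladenosine (m6A) on mRNA, and doxycycline (Dox) switches the shRNA on. The iSCR line carries a non-targeting scramble construct of the same kind. Both lines were selected with puromycin. With Dox, the iKD2 line gave 3 libraries, lettered a, b and c (iKD2 Dox+). Without Dox it gave 2, lettered b and c (iKD2 Dox-), and the scramble line with Dox gave 2, lettered a and b (iSCR Dox+). No iSCR library without Dox was analysed, so between the control groups (iKD2 Dox- and iSCR Dox+) the line and Dox cannot be told apart. The 3 comparisons share libraries pairwise and are not independent of one another.

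Mesenchymal and stromal cells are known by the extracellular matrix that they make and by the contractile filaments that they hold. SPARC is a secreted calcium-binding glycoprotein that attaches to collagen and changes the contact of cells with their matrix. FN1, POSTN, LUM, DCN and FBN1 are further matrix proteins, VIM and TAGLN belong to the cytoskeleton, and PDGFRB and THY1 are cell surface proteins. Several of these genes are not exclusive to mesenchyme, since epithelial cells can transcribe SPARC, FN1 and VIM. In the pancreas, stellate cells, fibroblasts and pericytes are the usual sources of this set of transcripts, and sorted β-like cells are not.

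Promoter sequence was available for 6 of the 10 genes (SPARC, FN1, VIM, POSTN, PDGFRB and FBN1) in the RefSeq windows of GRCh38.p14, each of which holds 250 bases before and 50 bases after a gene start. The stretches below are shown because FN1 and PDGFRB were the members whose levels across the 7 libraries were most like those of SPARC. All are on the minus strand and are written 5′ to 3′. The SPARC stretch is chr5:151687012-151687041, the FN1 stretch is chr2:215436182-215436301 and the PDGFRB stretch is chr5:150155873-150155989. The SPARC stretch lies before the RefSeq start but inside the GENCODE span of the gene (151661096 to 151687165). It is therefore upstream sequence by the RefSeq start only. The FN1 and PDGFRB stretches lie outside the GENCODE spans of their genes. Capitals mark GGAGGA in SPARC, TGACGTCA (a cAMP response element) and CCAAT in FN1, and CCAAT in PDGFRB.
SPARC: ggccgggggaaGGAGGAgacaGGAGGAGGA
FN1: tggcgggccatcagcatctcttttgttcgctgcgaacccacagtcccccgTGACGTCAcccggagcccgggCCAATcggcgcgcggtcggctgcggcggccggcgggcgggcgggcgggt
PDGFRB: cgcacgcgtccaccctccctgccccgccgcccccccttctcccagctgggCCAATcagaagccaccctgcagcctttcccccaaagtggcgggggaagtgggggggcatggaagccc

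The letters were counted on both strands, with overlapping matches counted separately, as in SPARC where neighbouring GGAGGA copies share bases. GGAGGA occurred 5 times in the SPARC window and 2 times in that of FN1, and 36.6% of 35116 RefSeq windows held it at least once. CCAAT was present in the FN1 and PDGFRB windows and in 34.6% of all windows. TGACGTCA was found in FN1 alone of the 6, at 183 bases before the start (position -183), and in 1.85% of all windows. GGGCGG (a GC box) was present in the FN1, PDGFRB and VIM windows and in 45% of all windows. The POSTN window held TATAAA, as 11.5% of windows did, and TGANTCA (an AP-1 site), as 7.71% of windows did. None of these motifs was common to the 6 windows, and the matches are a description of letters, not of binding.

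Total estimated counts per library ranged from 14875429 to 20639156. Replicates of 1 group differed far beyond sampling noise, with a median chi-square of 98.3 to 163 times its value under sampling noise alone (genes whose counts in a pair of libraries summed to 50 or more), and the common biological coefficient of variation was 1.14. The study describes the replicates as biologically independent, but neither it nor the labels say whether each was a separate culture. The p-values measure the spread between these libraries, part of which may be technical. CPM values are TMM-scaled, a correction for library size and composition, and libraries are always in the order a, b, c for iKD2 Dox+, b, c for iKD2 Dox- and a, b for iSCR Dox+. METTL14 levels by label were 18.7, 16.3 and 49.1 CPM (iKD2 Dox+), 39.4 and 22.6 CPM (iKD2 Dox-) and 36.1 and 32.2 CPM (iSCR Dox+). Replicate c of the libraries labelled iKD2 Dox+ thus had the most METTL14 of the 7, which goes against its label, and every direction below for iKD2 Dox+ includes it. From iKD2 Dox- and iSCR Dox+, METTL14 differed in iKD2 Dox+ by a log2 of -0.14 (SE 0.63) and -0.28 (SE 0.63). Neither difference passed edgeR's test over all genes. The labelled cell type was checked against 12 β-cell and endocrine markers, which summed to 25449 to 40280 CPM per library, mostly INS and CHGA, with none at 0. The 8 mesenchymal markers fixed for the check (LUM, DCN, POSTN, PDGFRB, PDGFRA, TWIST1, PRRX1 and THY1) summed to 52.3 to 150 CPM.

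Divided by the length of the longest coding transcript, so that genes can be compared, mean levels over the 7 libraries were 265 CPM per kb for VIM, 117 for FN1 and 70.8 for SPARC. LUM and TAGLN followed at 8.29 and 7.06 CPM per kb, and POSTN, THY1, PDGFRB, FBN1 and DCN lay between 4.34 and 1.37 CPM per kb. The 3 leading genes were thus nearly an order of magnitude above the other 7 on this scale. The genes that belong more narrowly to stromal cells were all in the lower set, where a library held as few as 0 (THY1 in iSCR Dox+ a) or 6 (DCN in iKD2 Dox- c) counts. In bulk RNA, fewer cells of a type and less RNA per cell cannot be told apart.

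**Figure D1:**
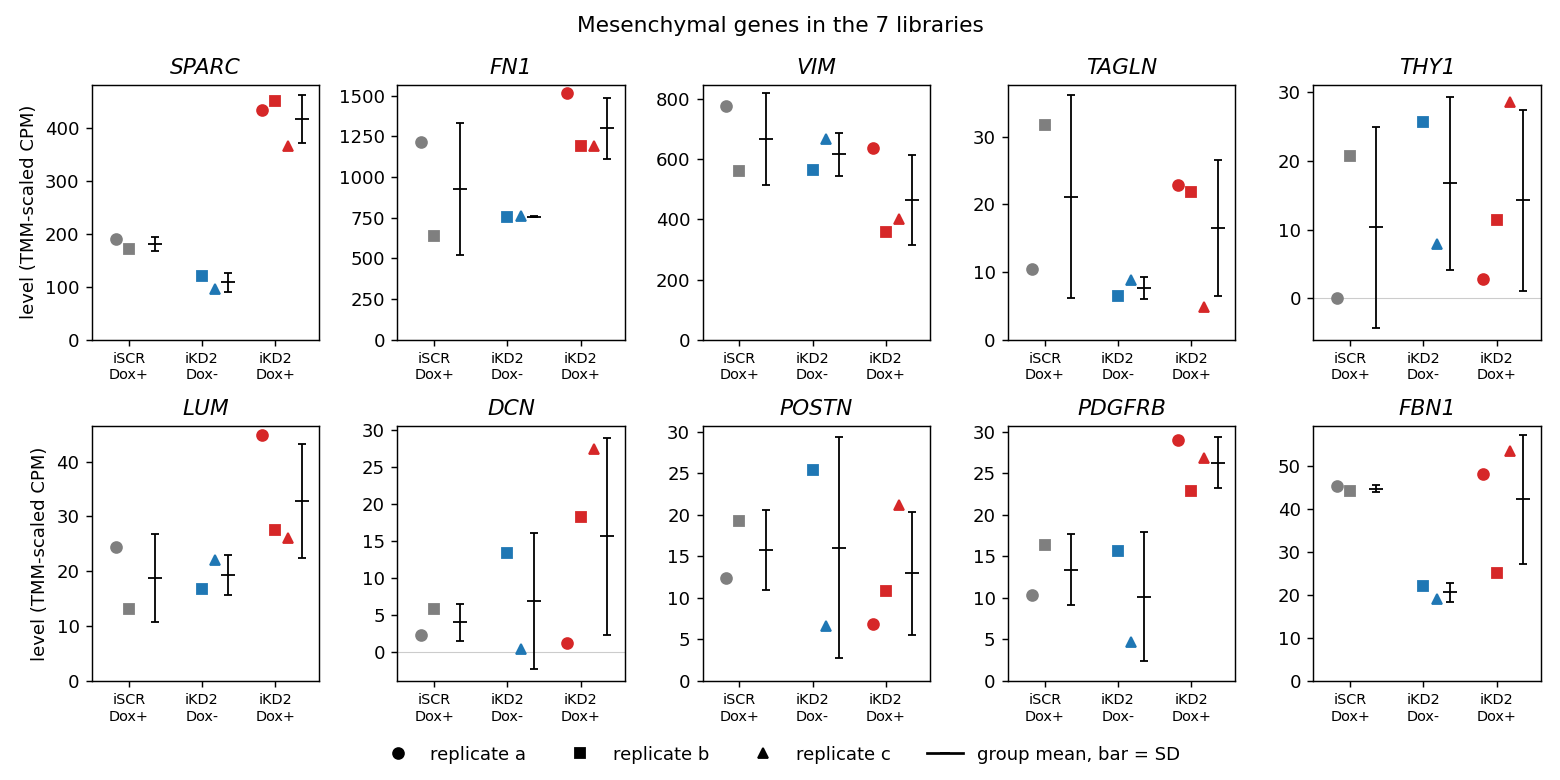
Levels of the 10 genes in TMM-scaled CPM (vertical axis, linear, a separate range for each gene) in the 3 groups. Points are libraries, with the shape giving the replicate letter, and black bars are group means ± SD. SPARC, chosen for its higher level in iKD2 Dox+, is the gene of the 10 in which the 3 groups are separate from one another. THY1, DCN and POSTN show replicates of 1 group far apart.

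SPARC (ENSG00000113140, chromosome 5, 151661096 to 151687165, minus strand of GRCh38 in GENCODE 29) had levels of 435, 453 and 367 CPM (iKD2 Dox+), 121 and 95.4 CPM (iKD2 Dox-) and 191 and 172 CPM (iSCR Dox+). The 3 groups did not overlap, with iKD2 Dox+ highest, iSCR Dox+ between and iKD2 Dox- lowest, and the highest library was 4.75 times the lowest. The share of all genes with 3 separate groups was not counted. The mean was 418 ± 45.6 CPM in iKD2 Dox+ (SD, n = 3), 108 ± 17.9 CPM in iKD2 Dox- (SD, n = 2) and 181 ± 13.4 CPM in iSCR Dox+ (SD, n = 2). The fitted log2 difference was 1.95 (SE 0.24) from iKD2 Dox- to iKD2 Dox+ and 1.21 (SE 0.24) from iSCR Dox+ to iKD2 Dox+, the values for which the gene was chosen. Left out 1 at a time, no library moved the first outside 1.79 to 2.12 or the second outside 1.13 to 1.29. Without iKD2 Dox+ c, the library with the high METTL14 level, SPARC was still the highest in iKD2 Dox+, since a and b are its 2 highest libraries. Counts of SPARC were whole numbers in all 7 libraries, and CLMAT3, an antisense gene that overlaps it, was listed at 0 in each.

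The remaining comparison of SPARC was between the control groups, which the choice of the gene did not use as a contrast although it used the same libraries. SPARC was lower in both iKD2 Dox- libraries than in both iSCR Dox+ libraries, at 108 ± 17.9 against 181 ± 13.4 CPM (SD, n = 2 each). The log2 difference of -0.75 (SE 0.25) did not pass the test over all genes (adjusted p = 0.826). Its 95% interval ran from -1.27 to -0.23, and its value lay between -0.93 and -0.58 with any library left out.

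FN1 (ENSG00000115414, chromosome 2, 215360440 to 215436172), fibronectin, is the glycoprotein that cells bind through integrins and on which collagen networks are assembled. Its measured levels were 1517, 1191 and 1191 CPM (iKD2 Dox+), 755 and 759 CPM (iKD2 Dox-) and 1216 and 637 CPM (iSCR Dox+). All iKD2 Dox+ libraries were above both iKD2 Dox- libraries, whereas the iSCR Dox+ libraries were so far apart that a was above 2 iKD2 Dox+ libraries and b below every other library. Against iKD2 Dox- the log2 difference was 0.78 (SE 0.22, adjusted p = 0.661), and against iSCR Dox+ it was 0.49 (SE 0.22, adjusted p = 0.699). Neither passed over all genes, and FN1 was the member with the smallest p in the first comparison once SPARC is set aside. The first became a call when iSCR Dox+ a or b, libraries outside that comparison which enter the estimate of the spread, was left out, with log2 differences of 0.78 and adjusted p-values of 0.00407 and 0.00291. The second depended on 1 library: it was 1.03 without iSCR Dox+ a (adjusted p = 0.00298, a call) and 0.10 without iSCR Dox+ b (adjusted p = 0.877). Counts of FN1 were not whole in 4 libraries, which can mark reads shared with other genes.

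POSTN (ENSG00000133110, chromosome 13, 37562583 to 37598844), periostin, is a matricellular protein of fibroblasts that crosslinks matrix. Its levels were 6.82, 10.8 and 21.2 CPM (iKD2 Dox+), 25.4 and 6.59 CPM (iKD2 Dox-) and 12.4 and 19.2 CPM (iSCR Dox+). The 3 groups overlapped, and the highest and the lowest library both belonged to iKD2 Dox-. The log2 differences of -0.31 and -0.29 from iKD2 Dox- and iSCR Dox+ had standard errors of 0.97 (adjusted p = 1 and 0.981).

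FBN1 (ENSG00000166147, chromosome 15, 48408306 to 48645849), fibrillin-1, is the core of the microfibrils on which elastic fibres form. Across the libraries it had levels of 48.2, 25.2 and 53.6 CPM (iKD2 Dox+), 22.1 and 19.1 CPM (iKD2 Dox-) and 45.4 and 44.3 CPM (iSCR Dox+). The iKD2 Dox- libraries were below all others, and iKD2 Dox+ and iSCR Dox+ overlapped. FBN1 differed by 1.04 (SE 0.56, adjusted p = 1) from iKD2 Dox- to iKD2 Dox+ and by -0.08 (SE 0.54, adjusted p = 0.993) from iSCR Dox+ to iKD2 Dox+. Between the controls, FBN1 was lower in iKD2 Dox- by a log2 difference of -1.12 (SE 0.60, adjusted p = 0.826). None of the 3 passed. Counts of FBN1 were not whole in 3 libraries, and the gene overlaps another annotated gene on the same strand.

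LUM and DCN encode lumican and decorin, small leucine-rich proteoglycans that regulate the width and spacing of collagen fibrils and are among the most used fibroblast markers. LUM (ENSG00000139329, chromosome 12, 91102629 to 91111831) had levels of 44.7, 27.6 and 26.1 CPM (iKD2 Dox+), 16.7 and 21.9 CPM (iKD2 Dox-) and 24.4 and 13.1 CPM (iSCR Dox+). All 3 iKD2 Dox+ libraries were above all 4 control libraries, although c exceeded iSCR Dox+ a by less than 2 CPM. The log2 differences of LUM were 0.76 (SE 0.68, adjusted p = 1) from iKD2 Dox- and 0.81 (SE 0.68, adjusted p = 0.792) from iSCR Dox+, with 95% intervals from -0.65 to 2.18 and from -0.61 to 2.23. Between the controls LUM differed by 0.04 (SE 0.73, adjusted p = 1).

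DCN (ENSG00000011465, chromosome 12, 91140484 to 91183123) did not follow LUM, its neighbour on chromosome 12. It had levels of 1.2, 18.2 and 27.4 CPM (iKD2 Dox+), 13.3 and 0.327 CPM (iKD2 Dox-) and 2.23 and 5.75 CPM (iSCR Dox+). The library with the most LUM, iKD2 Dox+ a, had the second lowest DCN level, and the groups overlapped in every comparison. The log2 differences from iKD2 Dox- and iSCR Dox+ were 1.19 (SE 1.55) and 1.96 (SE 1.60), with adjusted p-values of 1 and 0.774. The first was 0.23 without iKD2 Dox- c and 5.54 without iKD2 Dox- b. DCN spanned 83.8-fold over the 7 libraries, and its lowest value rests on 6 counts.

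VIM (ENSG00000026025, chromosome 10, 17228259 to 17237593), vimentin, forms the intermediate filaments of mesenchymal cells and was the most abundant of the 10 per length. Its measured levels were 637, 359 and 400 CPM (iKD2 Dox+), 566 and 667 CPM (iKD2 Dox-) and 778 and 560 CPM (iSCR Dox+). Libraries b and c of iKD2 Dox+ were the lowest of the 7, and a lay within the range of the controls. The fitted log2 differences of VIM were below 0 in both comparisons, at -0.41 (SE 0.23, adjusted p = 1) from iKD2 Dox- and -0.52 (SE 0.23, adjusted p = 0.699) from iSCR Dox+. The upper ends of the 95% intervals were 0.07 and -0.05. VIM overlaps the antisense gene VIM-AS1, which was at 0 to 31.3 CPM, and the strand setting of the counting is not given in the sources used here.

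TAGLN (ENSG00000149591, chromosome 11, 117199321 to 117204782), transgelin or SM22α, binds actin in smooth muscle and myofibroblasts. Its levels were 22.9, 21.8 and 4.86 CPM (iKD2 Dox+), 6.48 and 8.82 CPM (iKD2 Dox-) and 10.5 and 31.7 CPM (iSCR Dox+). The iKD2 Dox+ group held the lowest library (c) beside 2 of the 3 highest, and only the control groups did not overlap, with iKD2 Dox- lower. The log2 differences from iKD2 Dox- and iSCR Dox+ were 1.11 (SE 0.995, adjusted p = 1) and -0.35 (SE 0.95, adjusted p = 0.976), while between the controls the difference was -1.46 (SE 1.07, adjusted p = 0.837). TAGLN overlaps PCSK7 on the other strand, which was at 14.8 to 79.9 CPM.

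PDGFRB (ENSG00000113721, chromosome 5, 150113837 to 150155872) is the platelet-derived growth factor receptor of pericytes and fibroblasts. Across the libraries it had levels of 28.95, 22.9 and 26.9 CPM (iKD2 Dox+), 15.6 and 4.63 CPM (iKD2 Dox-) and 10.4 and 16.4 CPM (iSCR Dox+). All iKD2 Dox+ libraries were above all controls, with means of 26.2 ± 3.08 CPM (SD, n = 3) against 10.1 ± 7.78 and 13.4 ± 4.26 CPM (SD, n = 2 each). The log2 differences of 1.37 (SE 0.87) and 0.97 (SE 0.86) did not pass over all genes (adjusted p = 1 and 0.813). The first was 0.74 without iKD2 Dox- c, its lowest library, and 2.49 without iKD2 Dox- b.

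THY1 (ENSG00000154096, chromosome 11, 119417378 to 119424985), also known as CD90, is a surface glycoprotein of stromal cells and of some neurons. It had levels of 2.81, 11.4 and 28.7 CPM (iKD2 Dox+), 25.7 and 7.90 CPM (iKD2 Dox-) and 0 and 20.7 CPM (iSCR Dox+). Each group held a low and a high library, and all groups overlapped. The log2 differences of THY1 from iKD2 Dox- and iSCR Dox+ were -0.24 (SE 1.60) and 0.46 (SE 1.62), with adjusted p-values of 1 and 0.982. Without iSCR Dox+ b, the scramble group is left with the library at 0 counts, and THY1 was then a call in both comparisons with that group (adjusted p = 0.00493 and 0.00486). Since a count of 0 allows up to 3 counts, these calls were read only as lower bounds, with THY1 at least 71.6-fold and 85.2-fold higher in iKD2 Dox+ and iKD2 Dox- than that library. Counts of THY1 were not whole in 4 libraries, and the gene overlaps USP2-AS1 on the other strand (0 to 8.29 CPM).

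Counted together without SPARC, 0 of the 9 other genes passed an adjusted p under 0.05 in edgeR between iKD2 Dox+ and iKD2 Dox-, where 0.0393% of all genes did. At an unadjusted p under 0.05 there was 1 of 9 (FN1, higher), against 3.72% of all genes. Of the 9, 4 (FN1, LUM, PDGFRB and FBN1) had all iKD2 Dox+ libraries above both iKD2 Dox- libraries, as 8.74% of all genes did, and 0 had all below, as 11.6% did. The median log2 difference of the 9 was 0.78, beside 0.01 over all genes tested, with 6 above 0 and 3 (VIM, THY1 and POSTN) below. DESeq2 and limma voom also called 0 of the 9, where they called 1.19% and 0.0349% of all genes. No test was made over the set, which was put together with results from these libraries known.

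Against iSCR Dox+, 0 of the 9 passed in edgeR, where 0.0262% of all genes did, and 2 of 9 had an unadjusted p under 0.05 (FN1 higher, VIM lower), where 6.72% of all genes did. In 2 of the 9 (LUM and PDGFRB) all iKD2 Dox+ libraries were above both iSCR Dox+ libraries, as in 11.4% of all genes, and in 0 of 9 all were below, as in 9.23%. The median log2 difference was 0.46, beside 0.08 over all genes, with 5 above 0 and 4 below. DESeq2 and limma voom called 0 of the 9 here too (2.67% and 0.0174% of all genes). LUM and PDGFRB were thus the members other than SPARC whose iKD2 Dox+ libraries exceeded all 4 controls. The share of all genes above all 4 controls was not counted, here or for the genes named below.

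Between the controls, all 10 genes were compared, and 0 passed in edgeR, where 0.0131% of all genes did. SPARC alone (lower in iKD2 Dox-) had an unadjusted p under 0.05, beside 4.45% of all genes (2.66% higher and 1.79% lower). In 3 of 10 (SPARC, TAGLN and FBN1) both iKD2 Dox- libraries were below both iSCR Dox+ libraries, as in 13.3% of all genes, and in 0 of 10 both were above, as in 19.9%. The median log2 difference was -0.20, beside 0.04 over all genes. DESeq2 and limma voom called 0 of 10, with 1.34% and 0.00872% of all genes called.

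**Figure D2:**
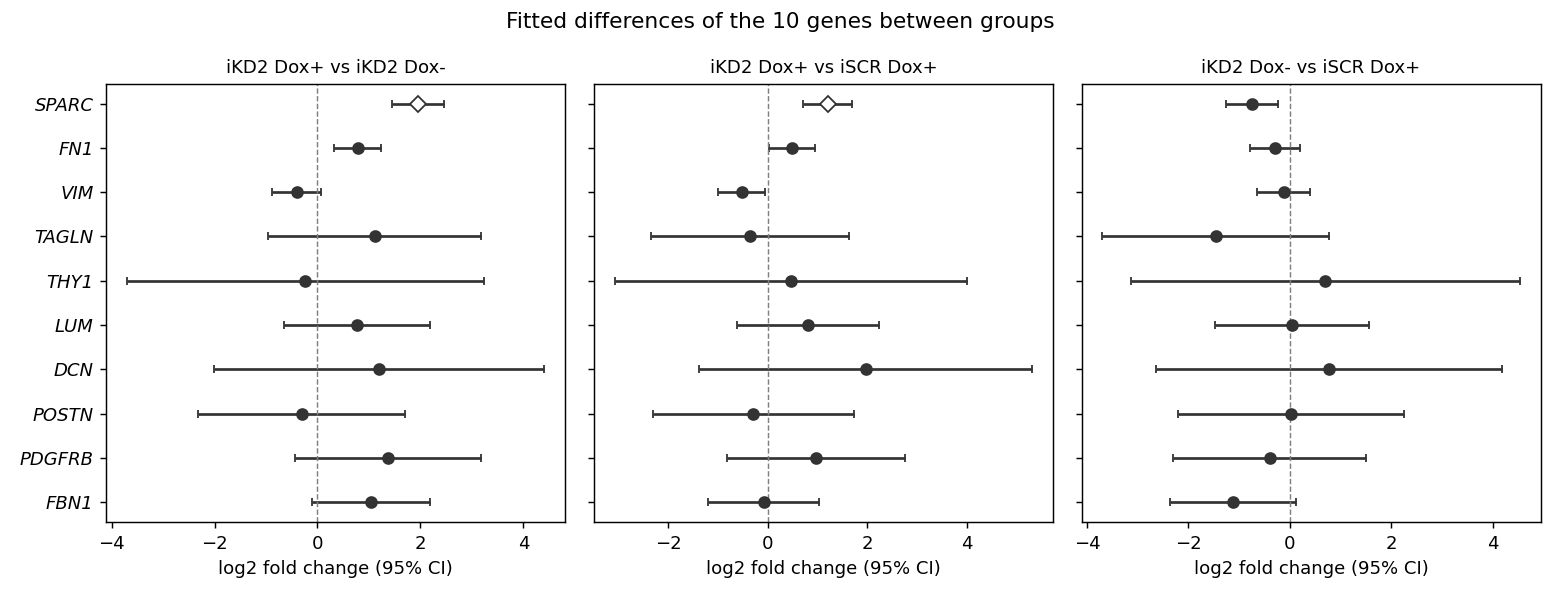
Fitted log2 fold changes of the 10 genes (horizontal axis) with 95% confidence intervals (bars) in the 3 comparisons. Open diamonds mark SPARC where its values chose it. Intervals of FN1, VIM and SPARC are narrow, and those of THY1, DCN, TAGLN and POSTN span several log2 units on both sides of 0.

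The narrowest intervals belonged to the 3 most abundant genes. Standard errors were 0.22 to 0.25 for SPARC, FN1 and VIM, and 0.54 to 1.77 for the 7 genes of lower level. In both comparisons of iKD2 Dox+, a 2-fold higher level (1 on the log2 scale) lay inside the 95% intervals of TAGLN, THY1, LUM, DCN, POSTN, PDGFRB and FBN1, so a difference of that size could not be told from none in these 7 genes.

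Relatives of the 10 genes were described in 12 further lists of 127 genes in all. The genes named from each list are those with the highest and lowest log2 difference among genes averaging 5 CPM or above, and those called in edgeR, and any other is said to have been chosen after its value was seen. In edgeR, 0 list genes passed between iKD2 Dox+ and iKD2 Dox- and 0 between the controls, and 1 (INS) passed, as lower, between iKD2 Dox+ and iSCR Dox+. From iKD2 Dox-, DESeq2 called 8 list genes higher (BGN, EFEMP1, HSPG2, TPM1, KRT8, KRT18, KRT19 and CLDN4) and 1 lower (CHGA), where it called 1.19% of all genes. From iSCR Dox+ it called 4 higher (PODN, THBS1, TPM1 and KRT19) and 2 lower (DES and INS), beside 2.67% of all genes. Between the controls it called 2 higher (PODN and PCSK1) and 2 lower (BGN and INS) in iKD2 Dox-, beside 1.34%. BGN in iKD2 Dox-, PODN in iSCR Dox+ and DES in iKD2 Dox+ were at or near 0 counts. These genes passed the count filter only through other groups, so their calls are a description. Limma voom called KRT8 higher and CHGA lower in the first comparison and INS lower in each of the others, beside 0.0349%, 0.0174% and 0.00872% of all genes. Genes of a list that did not reach the count filter are left out of the medians, and a median over those that did can be drawn towards the group in which a rare gene is present.

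The SPARC family and its relatives (SPARCL1, SMOC1, SMOC2, SPOCK1, SPOCK2, SPOCK3 and FSTL1), which share calcium-binding or follistatin-like domains with SPARC, showed no common direction. All 7 were tested, with median log2 differences of 0.11 from iKD2 Dox- and -0.04 from iSCR Dox+, and at an unadjusted p under 0.05 there was 1 higher (FSTL1) in the first comparison and 0 in the second. FSTL1 had levels of 159, 109 and 130 CPM (iKD2 Dox+), 77.1 and 79.2 CPM (iKD2 Dox-) and 113 and 111 CPM (iSCR Dox+). Its order of groups was that of SPARC, with a log2 difference of 0.76 (SE 0.31, adjusted p = 1) from iKD2 Dox-, but iKD2 Dox+ and iSCR Dox+ overlapped. SPOCK2 had the lowest value from iSCR Dox+ (-0.82, SE 0.46, adjusted p = 0.699) and SPOCK3 the lowest from iKD2 Dox- (-0.59, SE 0.55, adjusted p = 1). SMOC1 had the highest value from iSCR Dox+, at 0.64 (SE 0.47, adjusted p = 0.731).

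Among 12 matricellular and matrix-bound genes, 6 were higher at an unadjusted p under 0.05 in iKD2 Dox+ than in iKD2 Dox- and 3 were higher than in iSCR Dox+, with 0 lower in either. Over all genes, 2.04% and 3.94% were higher at that p in the same comparisons. The list medians were 0.63 and 0.74, and 0.11 between the controls. The 6 were TGFBI, THBS1, CCN2, VCAN, HSPG2 and AGRN, of which THBS1, VCAN and HSPG2 were also the 3, all but CCN2 named after their values were seen. THBS1, thrombospondin-1, had levels of 202, 137 and 181 CPM (iKD2 Dox+), 77.5 and 65.6 CPM (iKD2 Dox-) and 37.0 and 88.7 CPM (iSCR Dox+). HSPG2, the basement membrane proteoglycan perlecan, was at 483, 403 and 423 CPM, 251 and 190 CPM, and 321 and 189 CPM in the same order. In both genes every iKD2 Dox+ library was above every control. The adjusted p-values were 0.660 and 0.314 for THBS1 and 0.334 and 0.541 for HSPG2 from iKD2 Dox- and iSCR Dox+. By size, the extremes of the list were NID2, at 1.56 (SE 1.31) and 1.66 (SE 1.32), and NID1, at -0.90 (SE 0.72) and -0.51 (SE 0.72), both of them nidogens of the basement membrane. CCN2 had the lowest value of the list between the controls (-0.71, SE 0.31) and SPP1 the highest (0.39, SE 0.97), with adjusted p-values of 0.826 and 1.

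For the partners of LUM and DCN, 4 of 9 small leucine-rich proteoglycans had enough counts. BGN had levels of 2.58, 13.3 and 5.95 CPM (iKD2 Dox+), 0 and 0.272 CPM (iKD2 Dox-) and 32.5 and 3.01 CPM (iSCR Dox+). PODN was at 4.97, 2.62 and 24.4 CPM in iKD2 Dox+, at 4.53 and 1.85 CPM in iKD2 Dox-, and at 0 in both iSCR Dox+ libraries. Against a floor of 3 counts over the group, PODN was above iSCR Dox+ by at least 109-fold in iKD2 Dox+ and by at least 32.4-fold in iKD2 Dox-. The first bound rested largely on iKD2 Dox+ c and was 37.8-fold without it, and with 1 iSCR Dox+ library left out the bounds were 54.1-fold to 54.8-fold and 16.1-fold to 16.3-fold. BGN was thus lowest in iKD2 Dox- and PODN in iSCR Dox+, and neither had its 3 groups in the order of SPARC. The list medians of 3.01, 3.75 and 0.74 in the 3 comparisons became 3.01, 1.87 and -1.22 with such genes at their bound, and they rest on 4 genes.

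The partners of FBN1 in microfibrils and elastic fibres showed no common direction, with 16 of 17 tested and medians of -0.05, 0.10 and -0.15 in the 3 comparisons. EFEMP1 (fibulin-3) was the highest from iKD2 Dox-. Its measured levels were 63.5, 44.2 and 32.03 CPM (iKD2 Dox+), 4.77 and 7.90 CPM (iKD2 Dox-) and 51.7 and 11.8 CPM (iSCR Dox+). The log2 difference of EFEMP1 was 2.88 (SE 0.74, adjusted p = 0.384) from iKD2 Dox- and 0.55 (SE 0.66, adjusted p = 0.904) from iSCR Dox+, and it was -2.33 (SE 0.76, adjusted p = 0.826) between the controls. The first was a call with DESeq2 (adjusted p = 0.00473), with every gene of at least 1 count in edgeR (0.0398), and in edgeR without iSCR Dox+ a (0.0131) or b (0.00233). The difference of EFEMP1 between the controls was -0.90 without iSCR Dox+ a and -3.03 without iSCR Dox+ b, a call in edgeR (adjusted p = 0.00429). MFAP4 had the lowest values, at -1.38 (SE 1.58) and -2.10 (SE 1.59), and FBLN2 the highest from iSCR Dox+, at 1.84 (SE 1.71) for iKD2 Dox+ and 2.03 (SE 1.81) for iKD2 Dox-.

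Of the 14 smooth muscle and actin-binding genes related to TAGLN, all were tested, with medians of 0.54, 0.47 and -0.13. At an unadjusted p under 0.05, 2 were higher (TPM1 and CALD1) and 2 lower (TAGLN2 and DES) from iKD2 Dox-, all but DES named after their values were seen, and 1 was higher (TPM1) and 2 lower (TAGLN2 and DES) from iSCR Dox+. Over all genes, 2.04% were higher and 1.67% lower at that p in the first comparison, and 3.94% and 2.78% in the second. The defining genes of smooth muscle did not share a direction. ACTA2 had levels of 32.7, 23.8 and 3.32 CPM (iKD2 Dox+), 12.4 and 1.36 CPM (iKD2 Dox-) and 33.0 and 7.02 CPM (iSCR Dox+). DES was at 0, 0 and 0.114 CPM in iKD2 Dox+, at 0 and 9.26 CPM in iKD2 Dox-, and at 10.4 and 16.7 CPM in iSCR Dox+. DES passed the count filter only through control libraries, so its place among the genes at that p is a description. MYL9 had log2 differences of 0.94 (SE 0.87) for iKD2 Dox+ and 0.90 (SE 0.94) for iKD2 Dox- from iSCR Dox+.

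Among surface markers used beside PDGFRB and THY1, 9 of 10 were tested, with medians of 0.78, 0.38 and -0.33. NT5E (CD73) had levels of 25.5, 34.4 and 28.9 CPM (iKD2 Dox+), 5.94 and 2.72 CPM (iKD2 Dox-) and 2.50 and 12.7 CPM (iSCR Dox+). Like PDGFRB, NT5E was above all controls in every iKD2 Dox+ library, with log2 differences of 2.77 (SE 1.03, adjusted p = 1) and 1.96 (SE 0.99, adjusted p = 0.699). The second was 1.22 without iSCR Dox+ a and 3.56 without iSCR Dox+ b. MCAM was the lowest from iKD2 Dox- (-0.74, SE 1.42) and CD44 from iSCR Dox+ (-0.62, SE 1.07). ANPEP was the highest between the controls, at 0.35 (SE 0.53).

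Of 14 transcription factors of mesenchyme and of epithelial-mesenchymal transition, 11 were tested, and their medians were 0.65, 0.20 and -0.63. HAND2 had the highest value in all 3 comparisons, with levels of 15.9, 16.0 and 17.6 CPM (iKD2 Dox+), 1.36 and 9.10 CPM (iKD2 Dox-) and 0 and 4.01 CPM (iSCR Dox+). FOXC2 was the lowest from both controls, with log2 differences of -1.88 (SE 2.39) and -2.70 (SE 2.43), and SNAI1 the lowest between the controls (-1.33, SE 1.29). TWIST2, named after its values were seen, was at 10.3, 2.37 and 1.49 CPM in iKD2 Dox+ and at 0 in all 4 controls, so that it was at least 60.9-fold and 46.6-fold higher against the floor of 3 counts over the group. Without iKD2 Dox+ a, the library with most of its counts, these bounds were 24.8-fold and 18.9-fold, and with 1 control library left out they were as low as 28.8-fold and 23.1-fold. TWIST2 passed the count filter only through iKD2 Dox+, so no test of it is given, although it is among the 11 genes in the medians.

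TGF-β raises the transcription of many matrix genes in fibroblasts. Its 12 ligands, receptors and targets had medians of 0.06, -0.09 and -0.03, with 0 at an unadjusted p under 0.05 in either direction in the 3 comparisons. The extremes were TGFB3 (1.71, SE 1.89) and INHBA (-0.88, SE 0.54) from iKD2 Dox-, and SMAD7 (2.75, SE 2.16) and TGFB2 (-0.55, SE 0.43) from iSCR Dox+. For the 4 ligands of the PDGF receptors the medians were 0.17, -0.17 and -0.33, again with 0 at an unadjusted p under 0.05. PDGFC had the highest values among those at 5 CPM or more (0.23, SE 0.76, and -0.06, SE 0.76) and PDGFD the lowest (-0.08, SE 1.43, and -0.70, SE 1.41).

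**Figure D3:**
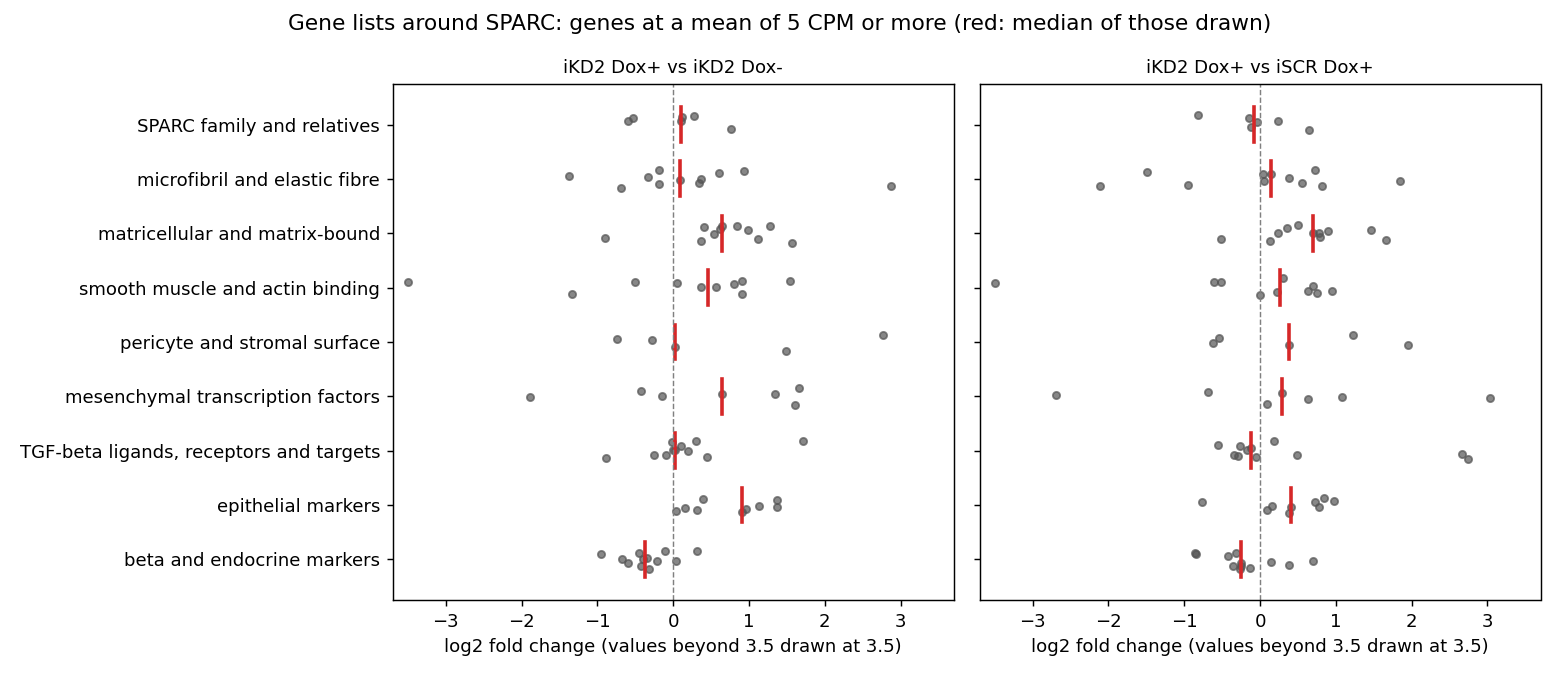
Log2 fold changes (horizontal axis) of the genes of 9 lists (rows) in the 2 comparisons of iKD2 Dox+, for genes at a mean of 5 CPM or more. Each point is a gene, values beyond 3.5 on either side are drawn at 3.5, and red bars are medians of the points drawn. Matricellular genes and epithelial markers lie mostly to the right of 0, β-cell and endocrine markers mostly to the left, and TGF-β genes around 0.

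Markers of other cell types moved beside SPARC. The 9 epithelial markers summed to 3573, 3660 and 3710 CPM (iKD2 Dox+), 2333 and 1894 CPM (iKD2 Dox-) and 3052 and 2143 CPM (iSCR Dox+), so the iKD2 Dox+ libraries were above all controls, as they were for SPARC. Of the 9, 5 were higher at an unadjusted p under 0.05 from iKD2 Dox- (median 0.91) and 3 from iSCR Dox+ (median 0.40), with 0 lower, where 2.04% and 3.94% of all genes were higher at that p. Between iKD2 Dox+ and iKD2 Dox-, DESeq2 called KRT8, KRT18, KRT19 and CLDN4 higher and limma voom called KRT8, and from iSCR Dox+ DESeq2 called KRT19. CLDN4, a tight junction protein, was the highest of the list in both, at 1.37 (SE 0.29, adjusted p = 0.151) and 0.97 (SE 0.29, adjusted p = 0.466), and CLDN7 the lowest, at 0.04 (SE 0.67) and -0.77 (SE 0.66).

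The 8 mesenchymal markers summed to 118, 104 and 150 CPM (iKD2 Dox+), 105 and 56.2 CPM (iKD2 Dox-) and 52.3 and 99.3 CPM (iSCR Dox+). The iKD2 Dox+ libraries thus overlapped with iKD2 Dox- in this sum and lay above both iSCR Dox+ libraries, and the level of SPARC alone exceeded the sum in each of the 7. The 7 endothelial markers summed to 1.66 to 17.8 CPM per library, with none at a mean of 5 CPM and 3 to 5 of them at 0 in each library. The 12 β-cell and endocrine markers summed to 25608, 29678 and 25449 CPM in iKD2 Dox+, to 37542 and 33932 CPM in iKD2 Dox-, and to 39993 and 40280 CPM in iSCR Dox+, so iKD2 Dox+ was below all controls. INS and CHGA made up most of each sum, with 11625 and 12446 CPM in iKD2 Dox+ a. By gene, 10 log2 differences were below 0 and 2 above from iKD2 Dox-, and 9 below and 3 above from iSCR Dox+. INS, the 1 list gene called in edgeR, was lower in iKD2 Dox+ when compared with iSCR Dox+ (log2 difference -0.85, SE 0.10, adjusted p = 4.71e-04), and was not a call without iKD2 Dox+ a (-0.81, adjusted p = 0.0638). INS was also lower in both iKD2 Dox- libraries than in both iSCR Dox+ libraries, with a log2 difference of -0.45 (SE 0.12) that was not a call in edgeR (adjusted p = 0.614) but was one with DESeq2 (adjusted p = 0.0328) and limma voom (adjusted p = 8.91e-05). PDX1, an endocrine transcription factor, had the lowest value of the list in iKD2 Dox+ against iSCR Dox+ (-0.85, SE 0.30, adjusted p = 0.627). PCSK1, a prohormone convertase, had the lowest value from iKD2 Dox- (-0.95, SE 0.36, adjusted p = 1) and the highest from iSCR Dox+ (0.70, SE 0.37, adjusted p = 0.699). The part of epithelial and endocrine content in the level of SPARC was not tested.

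The genes whose levels over the 7 libraries were most like those of SPARC were then sought among 11757 genes at a mean of 10 CPM or more, by Pearson's r of log2(CPM + 1). The correlation is a description over 7 libraries that share the same 3 groups. The 5 highest were SAMD12 (r = 0.986), EZR (0.984), KCNH3 (0.979), ELF3 (0.978) and GABRP (0.968). EZR encodes ezrin, which links the plasma membrane to actin in epithelial microvilli, ELF3 is an epithelial transcription factor, KCNH3 a potassium channel subunit and GABRP a GABA-A receptor subunit. None of the 5 was on any of the 12 lists.

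EZR had levels of 575, 499 and 517 CPM (iKD2 Dox+), 282 and 240 CPM (iKD2 Dox-) and 333 and 311 CPM (iSCR Dox+), the same order of groups as SPARC. ELF3 was at 258, 224 and 182 CPM, 98.7 and 81.2 CPM, and 148 and 115 CPM in the same order. GABRP was at 116, 96.0 and 108 CPM, 24.4 and 9.04 CPM, and 42.4 and 25.4 CPM. For EZR, ELF3 and GABRP alike, the lowest iKD2 Dox+ library was above the highest of iSCR Dox+, whose lowest was above the highest of iKD2 Dox-. Genes chosen for their correlation with SPARC are likely to share its order of groups, so this is a description.

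Among the members, PDGFRB and FN1 were most like SPARC (r = 0.844 and 0.802), followed by LUM (0.686), FBN1 (0.550), DCN (0.394) and TAGLN (0.310). THY1 (-0.0646) and POSTN (-0.128) were near 0, and VIM was at -0.574.

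**Figure D4:**
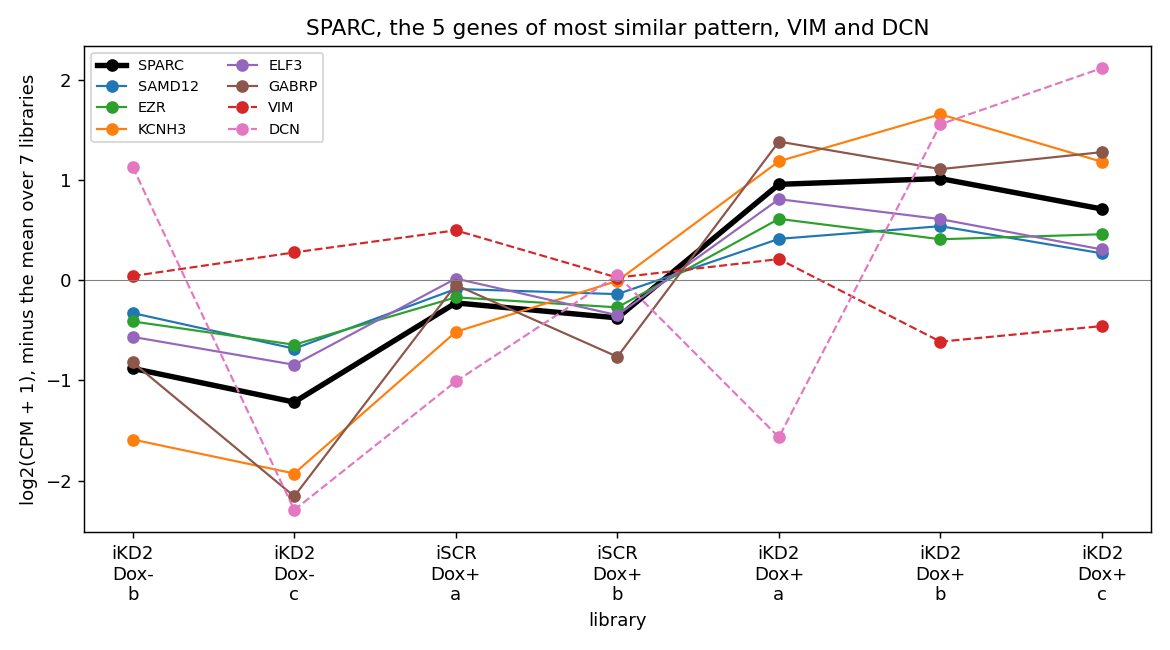
Levels of SPARC (black), its 5 most similar genes (solid lines), VIM and DCN (dashed lines) in the 7 libraries, as log2(CPM + 1) minus the mean of each gene over the 7 (vertical axis). Lines join libraries only to guide the eye. The 5 genes run with SPARC from low in iKD2 Dox- to high in iKD2 Dox+, while VIM is lowest in iKD2 Dox+ b and c and DCN swings between replicates of each iKD2 group.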

How the data were processed

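RNA from 7 libraries was sequenced in pairs after a stranded total RNA library kit. The authors trimmed adapters, quantified transcripts with Kallisto and summed them to genes with tximport, and deposited estimated counts per gene. Versions, annotation and the strand setting are not given in the sources used here. Per library, between 9.19% and 14.4% of all 66025 gene IDs, those without counts included, had values that were not whole. All values were rounded before testing. Groups were taken from the labels, and no column was left unmapped.

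Genes with enough counts (filterByExpr by group) were fitted with edgeR 4.0.16 in R 4.3.3 (TMM scaling, robust quasi-likelihood test, all 3 groups in 1 fit), with Benjamini-Hochberg adjustment over 22926 genes and a call at an adjusted p under 0.05. Standard errors were derived from the F statistic. Intervals are at 95%, and the floor for a group at 0 is 3 counts. Reads carry no molecular identifiers in the counts used, so floors cover counting error only. Alternatives were DESeq2 1.42.0, limma 3.58.1 (voom), other scalings and filters, the 2 compared groups alone, a replicate block and leaving out each library. The fit was also run on simulated counts in which only abundant genes were changed, by a large fold, so that run does not cover the members of lower level. Replicate letters were checked for pairing: deviations of libraries with the same letter correlated at -0.0157 to 0.0145, so the letters were not taken to pair libraries.

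The members and lists were chosen with earlier results of these data known. The text names the 10 members, METTL14, list genes that were called, the highest and lowest of each list among genes averaging 5 CPM or above, and the 5 genes most like SPARC. Gene coordinates are from GENCODE 29 (GRCh38), matched by gene ID, and promoter windows are from RefSeq (GRCh38.p14).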

Additional observations from a re-analysis of the deposited data

How the results depend on the processing

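Under 15 alternatives each, the log2 differences of SPARC were 1.79 to 2.12 from iKD2 Dox- and 1.13 to 1.31 from iSCR Dox+. Their direction follows from the choice of SPARC, so they are a description. Between the controls SPARC ran from -0.93 to -0.58. The counts of genes called depended on the setting. For iKD2 Dox+ beside iKD2 Dox-, iKD2 Dox+ beside iSCR Dox+ and the 2 control groups, in that order, edgeR called 9, 6 and 3 genes, and 51, 66 and 32 with every gene of at least 1 count, 2, 3 and 1 at a mean of at least 5 CPM, 354, 795 and 398 with DESeq2, and 0 in the last comparison with the 2 groups alone. Leaving out 1 library gave 2 to 115, 2 to 544 and 2 to 445, with the most calls without iSCR Dox+ b in each. Where a group was left with 1 library, that library was assumed to vary like the other groups. SPARC is left out of the counts of members called in the comparisons of iKD2 Dox+, which chose it. Members called were then 0 of 9, 0 of 9 and 0 of 10, and 1 (FN1, iKD2 Dox+ against iKD2 Dox-) with every gene of at least 1 count. Without 1 library they ranged from 0 to 1 in each comparison, the calls being FN1 without iSCR Dox+ a (both comparisons of iKD2 Dox+) or b (the first), and THY1 without iSCR Dox+ b (both comparisons with iSCR Dox+). The cause was not tested.

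With the replicate block, in which letters enter as a term although they were not found to pair libraries, 18, 15 and 8 genes were called. The replicate block turned THY1 (1.55), POSTN (0.0234), PDGFC (-0.0570), CLDN7 (-0.0248) and IAPP (-0.20) from iKD2 Dox-, PDGFC (0.18) from iSCR Dox+, and FN1 (0.0475), VIM (0.16), DCN (-0.94), POSTN (-0.44) and PDGFC (0.24) between the controls, none of them a call. Between the controls, DCN (-0.65) and POSTN (-0.19) also turned with limma voom, and POSTN (-0.0270 and -0.0267) and CDH1 (-0.0264 and -0.0259) with the DESeq2 test and with its size factors.

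Leaving out 1 library turned the direction of several genes, given here by their lowest and highest values. From iKD2 Dox- to iKD2 Dox+ these were THY1 (-1.25 to 0.85), POSTN (-0.98 to 0.96), DES (-9.30 to 2.63), PDGFC (-0.39 to 1.29), PDGFD (-1.54 to 0.56), CLDN7 (-0.25 to 0.25) and IAPP (-0.17 to 0.86). From iSCR Dox+ to iKD2 Dox+ they were TAGLN (-0.94 to 0.66), THY1 (-0.56 to 10.95), POSTN (-0.85 to 0.0618), FBN1 (-0.29 to 0.18), BGN (-2.16 to 1.27), FOXC2 (-10.52 to 7.85), TGFB2 (-1.10 to 0.35) and PDGFC (-0.49 to 0.57). From iSCR Dox+ to iKD2 Dox- they were FN1 (-0.68 to 0.25), VIM (-0.33 to 0.14), THY1 (-0.39 to 11.19), LUM (-0.33 to 0.56), DCN (-3.58 to 1.74), POSTN (-1.26 to 0.69), PDGFRB (-1.53 to 0.23), SPP1 (-0.13 to 1.21), NT5E (-1.55 to 0.79), HAND2 (-0.55 to 9.50), SMAD7 (-0.95 to 3.38), TGFB2 (-1.38 to 0.17), PDGFC (-1.36 to 0.34) and CDH1 (-0.26 to 0.36). Where the libraries that remain of a group are all at 0, as for THY1, HAND2 and FOXC2 without iSCR Dox+ b, FOXC2 without iKD2 Dox+ a, DES without iKD2 Dox+ c, and DES without iKD2 Dox- c, the fitted value depends on the prior count and is neither a fold nor a bound. For DES without iKD2 Dox- c both groups are under 3 counts, and in the other cases a bound against 3 counts can be read, such as at least 71.6-fold higher for THY1 in iKD2 Dox+. Among single genes, 29 alternative values passed the threshold where the value reported did not, and 1 (INS without iKD2 Dox+ a) lost it. At this depth THY1 and DCN had 0 and 6 counts in single libraries.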
